A study of Saccharomyces cerevisiae with 12 samples.

Results

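The ATG genes of Saccharomyces cerevisiae encode the machinery of autophagy. They were taken here as every gene whose platform symbol is ATG followed by digits, and 34 such genes were found among the 5449 named genes on the array. Each of the 34 has a single probe set among the 5716 measured, and all 34 symbols matched the RefSeq annotation of assembly R64, where the genes lie on 13 chromosomes. The older names ATG6 and ATG24 stand on the array as VPS30 and SNX4, so these genes fall outside the rule and are described among the partner genes. ATG42 had no match by symbol and was not analysed here.

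Macroautophagy wraps cytoplasm or whole organelles in a double membrane, the autophagosome, and delivers them to the vacuole for breakdown. In yeast it is held low while nutrients are plentiful, through the TORC1 and protein kinase A pathways, and it is turned on by starvation for nitrogen, carbon or other nutrients. The same machinery runs the cytoplasm-to-vacuole targeting (Cvt) pathway in growing cells, which carries the hydrolases Ape1 and Ams1 into the vacuole, and receptor proteins hand over selected cargo such as mitochondria, peroxisomes, nuclear envelope and endoplasmic reticulum.

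The study compared 2 prototrophic laboratory strains in 2 kinds of culture, with 3 biological replicates and 1 array per replicate in each of 4 groups. The groups are YSBN2 in glucose-limited chemostat, CEN.PK 113-7D in glucose-limited chemostat, YSBN2 in batch and CEN.PK 113-7D in batch. YSBN2 is an FY strain, of S288C descent, with disrupted HO alleles (ho::Ble/ho::HphMX4), and CEN.PK 113-7D is given as mating type a. YSBN2 is thus given with 2 ho alleles, and a ploidy difference between the strains, if present, cannot be told apart from strain. The feed of the chemostats held 7.5 g/L glucose and 0.3 g/L ethanol, and the dilution rate was 0.1 per h. Batch medium held 30 g/L glucose, and every culture ran aerobically in a 4 L reactor at pH 5 and 30 °C.

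Values are deposited log signals, read as log2, so a difference of 1 is a doubling of the signal. Signals of different probe sets are not on a common scale, and all comparisons below are between groups for the same gene. A difference is called where limma's adjusted p, corrected by Benjamini-Hochberg over all 5716 probe sets, is under 0.05. Each array reads RNA of a whole culture, so more cells with a transcript and more transcript per cell cannot be told apart.

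The arrays carried the labels' marks. HO was at 2.38, 2.11 and 2.11 in YSBN2 chemostats, 11.46, 11.78 and 11.59 in CEN.PK 113-7D chemostats, 2.39, 2.39 and 2.30 in YSBN2 batch and 12.62, 12.55 and 12.46 in CEN.PK 113-7D batch, so the disrupted gene was low in all 6 YSBN2 arrays. The glucose-repressed genes ADH2 and RGI2 were higher in chemostat than batch by 11.58 and 13.70 in YSBN2 and by 12.00 and 13.47 in CEN.PK 113-7D. Array medians ran from 11.02 to 11.37, an array had 6.37% to 9.8% of its signals under 4, and replicates correlated at 0.961 or more over all probe sets. The third YSBN2 batch array stood apart: 196 of its probe sets lay 2 or more from the mean of the other 2 arrays of its group, against 2 to 77 on the other arrays. On it 27 of the 34 ATG genes lay below the mean of the other 2 arrays, with a median deviation of -0.44, while the median over all probe sets was -0.01. On the first CEN.PK 113-7D batch array 5 ATG genes (ATG2, ATG7, ATG15, ATG33 and ATG34) lay 1 or more below the other 2 arrays. Called differences of ATG genes that move by over 1.5 times without either array are given with and without it. Lopsided counts were also found among the YSBN2 chemostat arrays. On the second, 33 of the 34 ATG genes lay above the other 2, with a median deviation of 0.20, beside 0.15 over all probe sets. On the first, 27 lay below, with a median of -0.17, beside -0.11 over all probe sets.

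**Figure D1:**
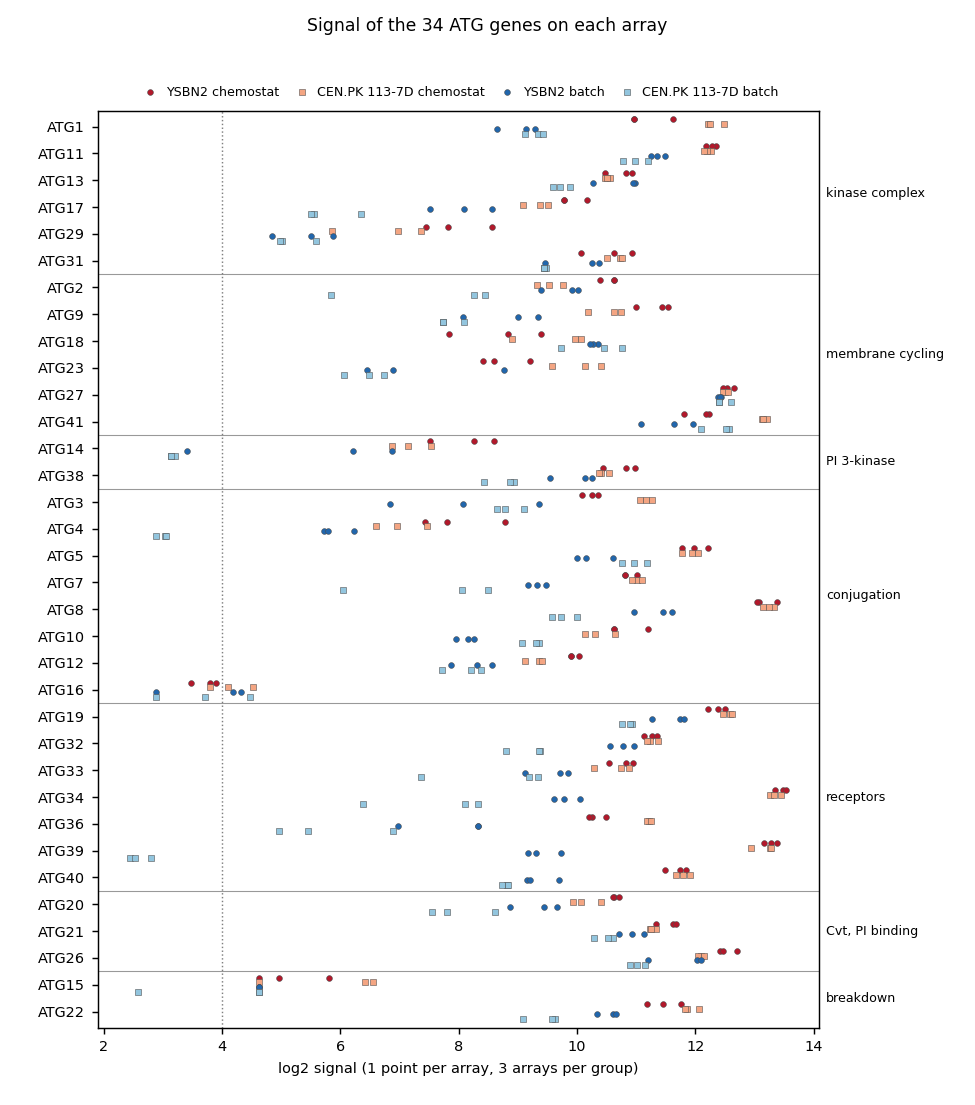
Level of each of the 34 ATG genes (log2 signal) in the 4 groups, with 1 point per array, 3 per group. The dotted line marks a signal of 4, under which 1 gene has its mean in YSBN2 chemostat, 0 in CEN.PK 113-7D chemostat, 1 in YSBN2 batch and 5 in CEN.PK 113-7D batch.

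Most ATG genes were higher in chemostat than in batch in both strains. In YSBN2 24 of 34 genes (70.6%) were called higher in the chemostat, where 30.6% of all probe sets were, and 1 (2.94%), ATG18, was called lower, against 21.9% of all probe sets. In CEN.PK 113-7D 31 of 34 (91.2%) were called higher, against 33.9% of all probe sets, and 0 were called lower by limma, also at an unadjusted p under 0.05, against 22.2% of all probe sets. The median chemostat-minus-batch difference of the 34 genes was 1.35 in YSBN2 and 2.02 in CEN.PK 113-7D, beside 0.06 and 0.09 over all probe sets. All 24 genes called higher in YSBN2 were also called higher in CEN.PK 113-7D, so 70.6% of the ATG genes rose in both strains, against 24.5% of all probe sets.

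With other scalings of the arrays the count of genes called higher was 21 to 23 in YSBN2 and 25 to 30 in CEN.PK 113-7D, and 1 gene was called lower in CEN.PK 113-7D under each (ATG27 or ATG18). Without the third YSBN2 batch array, 23 genes were called higher in YSBN2. Shares of all probe sets are not given for the counts in this paragraph.

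**Figure D2:**
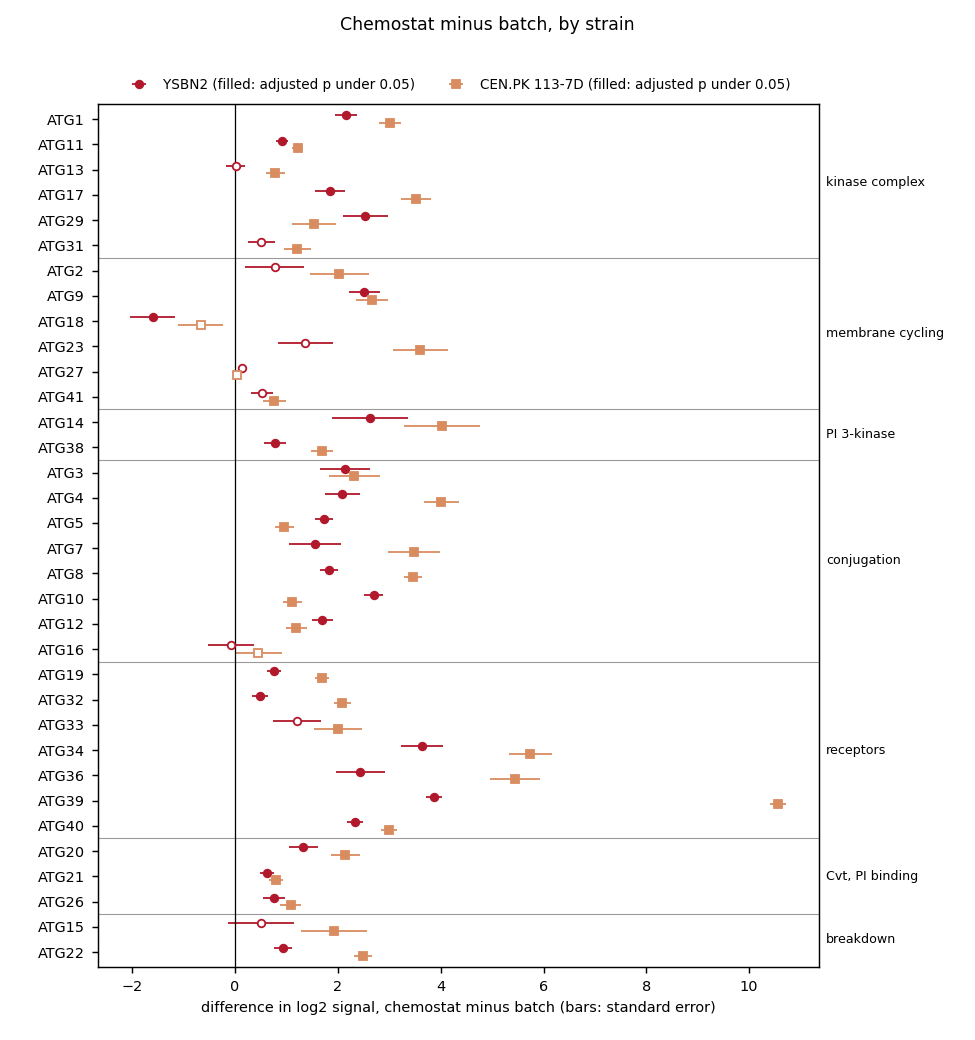
Chemostat minus batch difference (log2) of each ATG gene in YSBN2 and in CEN.PK 113-7D, with bars of 1 SE from limma. Filled symbols have an adjusted p under 0.05: 24 of 34 genes are filled above 0 in YSBN2 and 31 of 34 in CEN.PK 113-7D, with ATG39 farthest out in both strains.

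Autophagy starts at the Atg1 kinase complex and its scaffolds. Of these 6 genes 4 rose in the YSBN2 chemostat (ATG1, ATG11, ATG17 and ATG29) and all 6 rose in CEN.PK 113-7D, with a median difference of 1.38 in each strain. ATG1, the protein kinase at the head of the pathway, had signals of 10.96, 11.62 and 10.97 in YSBN2 chemostats, against 9.15, 9.29 and 8.65 in YSBN2 batch. In the other strain ATG1 was at 12.21, 12.48 and 12.24 in CEN.PK 113-7D chemostats, against 9.34, 9.42 and 9.13 in CEN.PK 113-7D batch. Chemostat and batch arrays did not overlap in either strain. The difference was 2.15 ± 0.21 (SE, limma adjusted p = 2.6e-05) in YSBN2 and 3.02 ± 0.21 (SE, limma adjusted p = 2.3e-06) in CEN.PK 113-7D, a 4.45-fold and an 8.09-fold rise. The strains overlapped in batch, and in chemostat the 3 YSBN2 arrays lay below the 3 CEN.PK 113-7D arrays, with a difference of -1.13 ± 0.21 (SE, limma adjusted p = 0.004).

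ATG17, the scaffold that gathers the other factors under starvation, was at 9.77, 10.17 and 9.79 in YSBN2 chemostats, against 8.57, 8.10 and 7.52 in YSBN2 batch. Its signals were 9.38, 9.10 and 9.51 in CEN.PK 113-7D chemostats, against 6.36, 5.56 and 5.51 in CEN.PK 113-7D batch. The lowest of the 12 values were the 3 CEN.PK 113-7D batch arrays, and within each strain every chemostat array lay above every batch array. ATG17 rose by 1.85 ± 0.29 (SE, limma adjusted p = 0.00059) in YSBN2 and by 3.52 ± 0.29 (SE, limma adjusted p = 7.3e-06) in CEN.PK 113-7D. ATG11, the scaffold of selective autophagy, rose by 0.91 ± 0.11 in YSBN2 and by 1.22 ± 0.11 in CEN.PK 113-7D. ATG29, a subunit that binds Atg17 through Atg31, rose by 2.54 ± 0.43 (SE, limma adjusted p = 0.00091) in YSBN2 and by 1.53 ± 0.43 (SE, limma adjusted p = 0.013) in CEN.PK 113-7D. The CEN.PK 113-7D value of ATG29 rests on 1 array and on the scaling: without the third chemostat array it was 1.22 (adjusted p = 0.053), with quantile normalization it was -0.75 (adjusted p = 0.073), and with values under 6 raised to 6 it was 0.78 (adjusted p = 0.092).

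ATG13, the regulatory subunit that TORC1 phosphorylates, and ATG31 differed between cultures by 0.01 ± 0.19 (SE, limma adjusted p = 0.96) and 0.51 ± 0.26 (SE, limma adjusted p = 0.13) in YSBN2, neither called. Both rose in CEN.PK 113-7D, by 0.79 ± 0.19 (SE, limma adjusted p = 0.0062) and 1.21 ± 0.26 (SE, limma adjusted p = 0.0033). With quantile normalization ATG13 was 0.26 higher in the CEN.PK 113-7D chemostat (adjusted p = 0.26).

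A further 6 genes serve the membrane supply around Atg9 and the Atg2-Atg18 pair. In this group 1 gene rose and 1 fell in the YSBN2 chemostat, and 4 of 6 rose in CEN.PK 113-7D (ATG2, ATG9, ATG23 and ATG41). ATG9, the membrane protein whose vesicles seed the autophagosome, had signals of 11.54, 11.43 and 11.00 in YSBN2 chemostats, against 9.34, 9.00 and 8.07 in YSBN2 batch. The corresponding ATG9 values were 10.18, 10.63 and 10.74 in CEN.PK 113-7D chemostats, against 7.73, 7.73 and 8.09 in CEN.PK 113-7D batch. No chemostat array overlapped a batch array of the same strain. ATG9 rose by 2.52 ± 0.31 (SE, limma adjusted p = 0.00011) in YSBN2 and by 2.67 ± 0.31 (SE, limma adjusted p = 6.2e-05) in CEN.PK 113-7D, nearly the same size, and the difference between the effects was -0.15 ± 0.43 (SE, limma adjusted p = 0.88), with a 95% interval of -1.13 to 0.82.

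ATG18, which binds phosphatidylinositol 3-phosphate (PI3P) and works with Atg2, was the one ATG gene called lower in chemostat. Its signals were 7.84, 8.83 and 9.39 in YSBN2 chemostats, against 10.36, 10.28 and 10.22 in YSBN2 batch. In the other strain they were 8.91, 10.06 and 9.97 in CEN.PK 113-7D chemostats, against 9.73, 10.77 and 10.45 in CEN.PK 113-7D batch. The YSBN2 groups did not overlap, while the CEN.PK 113-7D groups did. ATG18 fell in YSBN2, with a difference of -1.60 ± 0.44 (SE, limma adjusted p = 0.012), and the CEN.PK 113-7D difference was -0.67 ± 0.44 (SE, limma adjusted p = 0.22). In a fit of the 6 CEN.PK 113-7D arrays with replicate number as a block that difference was called (adjusted p = 0.0085), and with quantile normalization it was -1.28 (adjusted p = 0.019).

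ATG2, the lipid transfer protein, differed by 0.77 ± 0.57 (SE, limma adjusted p = 0.29) in YSBN2 and rose by 2.03 ± 0.57 (SE, limma adjusted p = 0.013) in CEN.PK 113-7D, where its first batch array lay 2.52 below the mean of the other 2. Without that array the CEN.PK 113-7D rise of ATG2 was 1.19 (adjusted p = 0.0012). It was 0.72 (adjusted p = 0.076) with quantile normalization, and in a fit of the CEN.PK 113-7D arrays alone its adjusted p was 0.06. ATG23, which helps carry Atg9, differed by 1.37 ± 0.53 (SE, limma adjusted p = 0.055) in YSBN2 and rose by 3.60 ± 0.53 (SE, limma adjusted p = 0.00032) in CEN.PK 113-7D. The third YSBN2 batch array of ATG23 was 8.76, above the 8.41 and 8.59 of the lowest 2 chemostat arrays, and without it the YSBN2 difference was 2.06 (adjusted p = 0.00075). ATG27, another Atg9 carrier, had the narrowest spread of the 34 genes, from 12.39 to 12.65 over all 12 arrays. Its differences were 0.14 ± 0.08 (SE, limma adjusted p = 0.16) in YSBN2 and 0.04 ± 0.08 (SE, limma adjusted p = 0.69) in CEN.PK 113-7D, neither called, and the CEN.PK 113-7D value turned to -0.24 (adjusted p = 0.035) when the arrays were set to a common median.

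ATG41, a partner of Atg9, was the one ATG gene whose strain difference was called in both cultures. Its signals were 12.23, 12.19 and 11.81 in YSBN2 chemostats, against 11.64, 11.95 and 11.07 in YSBN2 batch. In CEN.PK 113-7D they were 13.14, 13.21 and 13.15 in CEN.PK 113-7D chemostats, against 12.10, 12.58 and 12.53 in CEN.PK 113-7D batch. Every YSBN2 array lay below every CEN.PK 113-7D array of the same culture. The YSBN2 minus CEN.PK 113-7D difference was -1.09 ± 0.22 (SE, limma adjusted p = 0.0057) in chemostat and -0.85 ± 0.22 (SE, limma adjusted p = 0.018) in batch, and the batch call needed both the second and the third CEN.PK 113-7D batch array (leaving out either 1, adjusted p = 0.065 and 0.058). Between cultures ATG41 differed by 0.52 ± 0.22 (SE, limma adjusted p = 0.072) in YSBN2 and rose by 0.76 ± 0.22 (SE, limma adjusted p = 0.014) in CEN.PK 113-7D. The CEN.PK 113-7D call did not hold once the first batch array was left out (0.61, adjusted p = 0.054), nor after setting all arrays to 1 median (0.48, adjusted p = 0.096).

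The phosphatidylinositol 3-kinase complex of autophagy makes the PI3P that recruits later factors, and both of its ATG subunits rose in both strains. ATG14, which directs the complex to the autophagosome, had signals of 7.51, 8.61 and 8.25 in YSBN2 chemostats, against 6.87, 6.21 and 3.41 in YSBN2 batch. Its CEN.PK 113-7D signals were 6.87, 7.14 and 7.54 in CEN.PK 113-7D chemostats, against 3.15, 3.21 and 3.14 in CEN.PK 113-7D batch. The third YSBN2 batch array, 3.41, lay near the CEN.PK 113-7D batch arrays and far below the other 2 of its group. ATG14 rose by 2.63 ± 0.74 (SE, limma adjusted p = 0.014) in YSBN2 and by 4.02 ± 0.74 (SE, limma adjusted p = 0.0012) in CEN.PK 113-7D. Without that array the YSBN2 rise of ATG14 was 1.58 (adjusted p = 0.0035). It was 1.28 (adjusted p = 0.17) with quantile normalization, and in a fit of the YSBN2 arrays alone its adjusted p was 0.082. ATG38, which holds the complex together, rose by 0.77 ± 0.21 (SE, limma adjusted p = 0.013) in YSBN2 and by 1.70 ± 0.21 (SE, limma adjusted p = 0.00012) in CEN.PK 113-7D. The YSBN2 call of ATG38 did not hold once the second chemostat array was left out (adjusted p = 0.051), with quantile normalization (adjusted p = 0.074), with cyclic loess (adjusted p = 0.062) or in a fit of the YSBN2 arrays alone (adjusted p = 0.053).

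The ubiquitin-like conjugation system attaches Atg8 to lipid and Atg12 to Atg5. Of its 8 genes 7 rose in the YSBN2 chemostat and 7 in CEN.PK 113-7D, all but ATG16 in each case, with medians of 1.78 and 1.76. ATG8, which coats the growing membrane and binds cargo receptors, had signals of 13.08, 13.38 and 13.05 in YSBN2 chemostats, against 11.46, 11.60 and 10.97 in YSBN2 batch. The other strain gave 13.15, 13.32 and 13.25 in CEN.PK 113-7D chemostats, against 10.01, 9.74 and 9.58 in CEN.PK 113-7D batch. Chemostat arrays of both strains fell in the same range, and the YSBN2 batch arrays lay between the CEN.PK 113-7D batch arrays and the chemostats. ATG8 rose by 1.83 ± 0.17 (SE, limma adjusted p = 2.1e-05), or 3.55-fold, in YSBN2 and by 3.46 ± 0.17 (SE, limma adjusted p = 2e-07), or 11-fold, in CEN.PK 113-7D.

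ATG4, the protease that trims Atg8 and frees it from lipid, had signals of 7.81, 8.79 and 7.43 in YSBN2 chemostats, against 5.72, 5.80 and 6.23 in YSBN2 batch. In CEN.PK 113-7D its signals were 6.60, 6.96 and 7.46 in CEN.PK 113-7D chemostats, against 3.04, 3.05 and 2.89 in CEN.PK 113-7D batch. The CEN.PK 113-7D batch values lie near the low end of the arrays, and no group overlapped the other culture of its strain. ATG4 rose by 2.09 ± 0.33 (SE, limma adjusted p = 6e-04) in YSBN2 and by 4.01 ± 0.33 (SE, limma adjusted p = 7e-06) in CEN.PK 113-7D. With values under 6 raised to 6, the differences were 1.93 in YSBN2 (adjusted p = 0.0011) and 1.01 in CEN.PK 113-7D (adjusted p = 0.028), so the larger CEN.PK 113-7D value rests on signals under 6. With quantile normalization the YSBN2 difference was 0.66 (adjusted p = 0.076).

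ATG10, the enzyme that passes Atg12 to Atg5, rose more in YSBN2 than in CEN.PK 113-7D. Its signals were 10.63, 11.20 and 10.63 in YSBN2 chemostats, against 8.25, 7.95 and 8.16 in YSBN2 batch. The CEN.PK 113-7D signals were 10.30, 10.14 and 10.64 in CEN.PK 113-7D chemostats, against 9.36, 9.30 and 9.08 in CEN.PK 113-7D batch. The YSBN2 batch arrays were the lowest of the 4 groups, below every CEN.PK 113-7D batch array. ATG10 rose by 2.70 ± 0.18 (SE, limma adjusted p = 2.3e-06) in YSBN2 and by 1.11 ± 0.18 (SE, limma adjusted p = 0.00064) in CEN.PK 113-7D.

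ATG5, the acceptor of Atg12, had signals of 11.98, 12.21 and 11.78 in YSBN2 chemostats, against 10.61, 10.15 and 10.00 in YSBN2 batch. The CEN.PK 113-7D values of ATG5 were 11.78, 11.95 and 12.05 in CEN.PK 113-7D chemostats, against 11.18, 10.96 and 10.76 in CEN.PK 113-7D batch. It too was lowest in YSBN2 batch, with no overlap with CEN.PK 113-7D batch. ATG5 rose by 1.74 ± 0.18 (SE, limma adjusted p = 3.7e-05) in YSBN2 and by 0.96 ± 0.18 (SE, limma adjusted p = 0.0014) in CEN.PK 113-7D. ATG12, the second ubiquitin-like protein, had signals of 9.91, 10.03 and 9.90 in YSBN2 chemostats, against 8.56, 8.32 and 7.86 in YSBN2 batch. In CEN.PK 113-7D they were 9.35, 9.12 and 9.41 in CEN.PK 113-7D chemostats, against 8.37, 8.21 and 7.71 in CEN.PK 113-7D batch. Batch arrays of the strains overlapped, and YSBN2 chemostat arrays lay above CEN.PK 113-7D chemostat arrays. ATG12 rose by 1.70 ± 0.20 (SE, limma adjusted p = 9e-05) in YSBN2 and by 1.19 ± 0.20 (SE, limma adjusted p = 0.00074) in CEN.PK 113-7D, and the CEN.PK 113-7D value was 0.03 with quantile normalization (adjusted p = 0.94).

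Of the remaining enzymes, ATG7, which activates both Atg8 and Atg12, rose by 1.56 ± 0.50 (SE, limma adjusted p = 0.026) in YSBN2 and by 3.48 ± 0.50 (SE, limma adjusted p = 0.00027) in CEN.PK 113-7D. The YSBN2 call of ATG7 was lost when any 1 of 5 of the 6 YSBN2 arrays was left out, with adjusted p from 0.055 to 0.072. ATG3, which passes Atg8 to lipid, rose by 2.13 ± 0.49 (SE, limma adjusted p = 0.0049) in YSBN2 and by 2.32 ± 0.49 (SE, limma adjusted p = 0.0028) in CEN.PK 113-7D, with YSBN2 batch arrays that spread over 6.85, 8.08 and 9.36. ATG16, the partner of the Atg12-Atg5 conjugate, stayed between 2.88 and 4.53 on all 12 arrays, near the low end of the signals. Its differences of -0.08 ± 0.45 (SE, limma adjusted p = 0.92) in YSBN2 and 0.45 ± 0.45 (SE, limma adjusted p = 0.43) in CEN.PK 113-7D were not called.

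Among the cargo receptors and the mitophagy protein ATG33, 6 of 7 genes rose in the YSBN2 chemostat and 7 of 7 in CEN.PK 113-7D. Their median differences, 2.33 and 3.00, were the largest of the role groups with more than 2 ATG genes in both strains. ATG39, the receptor for the nuclear envelope and perinuclear endoplasmic reticulum, had signals of 13.29, 13.38 and 13.16 in YSBN2 chemostats, against 9.18, 9.30 and 9.73 in YSBN2 batch. In CEN.PK 113-7D the signals were 13.26, 12.95 and 13.27 in CEN.PK 113-7D chemostats, against 2.81, 2.45 and 2.54 in CEN.PK 113-7D batch. All 6 chemostat arrays lay between 12.95 and 13.38, the YSBN2 batch arrays lay lower, and the CEN.PK 113-7D batch arrays lay among the lowest signals on the arrays. ATG39 rose by 3.87 ± 0.16 (SE, limma adjusted p = 7.2e-08) in YSBN2, or 14.6-fold, and by 10.56 ± 0.16 (SE, limma adjusted p = 3e-11) in CEN.PK 113-7D. With values under 6 raised to 6 the CEN.PK 113-7D difference was 7.16 (adjusted p = 7.4e-10) and the YSBN2 difference stayed at 3.87.

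ATG34, the starvation receptor of Ams1, had signals of 13.35, 13.48 and 13.54 in YSBN2 chemostats, against 9.79, 10.05 and 9.62 in YSBN2 batch. The CEN.PK 113-7D signals of ATG34 were 13.26, 13.33 and 13.45 in CEN.PK 113-7D chemostats, against 6.38, 8.11 and 8.32 in CEN.PK 113-7D batch. The chemostat arrays of both strains covered 13.26 to 13.54, and every YSBN2 batch array lay above every CEN.PK 113-7D batch array. ATG34 rose by 3.64 ± 0.42 (SE, limma adjusted p = 7.3e-05) in YSBN2 and by 5.74 ± 0.42 (SE, limma adjusted p = 2.9e-06) in CEN.PK 113-7D. ATG19, the Cvt receptor of Ape1 and a relative of ATG34, is its neighbour on chromosome XV in assembly R64, with 0 protein-coding genes between. ATG19 signals were 12.22, 12.38 and 12.51 in YSBN2 chemostats, against 11.74, 11.81 and 11.27 in YSBN2 batch. Its CEN.PK 113-7D values were 12.47, 12.59 and 12.62 in CEN.PK 113-7D chemostats, against 10.76, 10.93 and 10.90 in CEN.PK 113-7D batch. As for ATG34, the YSBN2 batch arrays lay above the CEN.PK 113-7D batch arrays and below all chemostat arrays. ATG19 rose by 0.76 ± 0.14 (SE, limma adjusted p = 0.0013) in YSBN2 and by 1.69 ± 0.14 (SE, limma adjusted p = 6.3e-06) in CEN.PK 113-7D.

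ATG36, the receptor for peroxisomes, had signals of 10.26, 10.49 and 10.20 in YSBN2 chemostats, against 8.33, 8.32 and 6.98 in YSBN2 batch. In the other strain ATG36 was at 11.21, 11.18 and 11.26 in CEN.PK 113-7D chemostats, against 5.45, 6.90 and 4.97 in CEN.PK 113-7D batch. No group overlapped another, and CEN.PK 113-7D had both the highest chemostat and the lowest batch arrays. ATG36 rose by 2.44 ± 0.48 (SE, limma adjusted p = 0.0022) in YSBN2 and by 5.44 ± 0.48 (SE, limma adjusted p = 1.1e-05) in CEN.PK 113-7D. ATG32, the receptor for mitochondria, had signals of 11.14, 11.28 and 11.35 in YSBN2 chemostats, against 10.97, 10.78 and 10.56 in YSBN2 batch. Its signals were 11.23, 11.37 and 11.18 in CEN.PK 113-7D chemostats, against 8.80, 9.37 and 9.35 in CEN.PK 113-7D batch. The YSBN2 batch arrays lay just under its chemostat arrays, and the CEN.PK 113-7D batch arrays lay well below. In YSBN2 the rise of ATG32 was 0.49 ± 0.16 (SE, limma adjusted p = 0.029), a call that was lost without any 1 of 4 arrays (the second or the third of either culture), with adjusted p from 0.061 to 0.087, and after setting all arrays to 1 median (0.35, adjusted p = 0.094). In CEN.PK 113-7D ATG32 rose by 2.09 ± 0.16 (SE, limma adjusted p = 4.2e-06).

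ATG40, the receptor for endoplasmic reticulum, rose by 2.33 ± 0.15 (SE, limma adjusted p = 1.5e-06) in YSBN2 and by 3.00 ± 0.15 (SE, limma adjusted p = 1.9e-07) in CEN.PK 113-7D. ATG33, a mitochondrial outer membrane protein used in mitophagy, differed by 1.21 ± 0.46 (SE, limma adjusted p = 0.051) in YSBN2, which misses the threshold, and rose by 2.00 ± 0.46 (SE, limma adjusted p = 0.0048) in CEN.PK 113-7D. CUE5, a receptor for ubiquitin-tagged cargo without an ATG name, was called in neither strain, with -0.14 in YSBN2 and 0.44 in CEN.PK 113-7D.

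The 3 members ATG20, ATG21 and ATG26 bind phosphoinositides or sterols, and all of them rose in both strains. ATG20, a sorting nexin, rose by 1.33 ± 0.28 (SE, limma adjusted p = 0.0032) in YSBN2 and by 2.14 ± 0.28 (SE, limma adjusted p = 0.00015) in CEN.PK 113-7D. ATG21, which helps bring the Atg12 conjugate to the membrane, rose by 0.63 ± 0.13 in YSBN2 and by 0.79 ± 0.13 in CEN.PK 113-7D. ATG26, a sterol glucosyltransferase whose part in autophagy is known from Pichia, rose by 0.76 ± 0.21 in YSBN2 and by 1.08 ± 0.21 in CEN.PK 113-7D. The YSBN2 rise of ATG26 was 0.47 (adjusted p = 0.0045) without the third YSBN2 batch array, and its call was lost in a fit of the YSBN2 arrays alone (adjusted p = 0.075). At the end of the pathway stand ATG15, the vacuolar lipase that opens the delivered vesicles, and ATG22, which exports amino acids from the vacuole. ATG22 signals were 11.45, 11.76 and 11.19 in YSBN2 chemostats, against 10.60, 10.65 and 10.34 in YSBN2 batch. The CEN.PK 113-7D values were 12.06, 11.87 and 11.82 in CEN.PK 113-7D chemostats, against 9.62, 9.57 and 9.09 in CEN.PK 113-7D batch. All chemostat arrays lay above all batch arrays, and CEN.PK 113-7D held both the highest and the lowest group. ATG22 rose by 0.93 ± 0.18 (SE, limma adjusted p = 0.0018) in YSBN2 and by 2.49 ± 0.18 (SE, limma adjusted p = 2.8e-06) in CEN.PK 113-7D.

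ATG15 was poorly resolved. On 7 of its 12 arrays the signal lay within 0.02 of the others, from 4.62 to 4.63. It differed by 0.51 ± 0.65 (SE, limma adjusted p = 0.54) in YSBN2 and rose by 1.92 ± 0.65 (SE, limma adjusted p = 0.029) in CEN.PK 113-7D. The call did not hold when the first batch array or the second or the third chemostat array of CEN.PK 113-7D was left out, with adjusted p from 0.093 to 0.1, and the value was 1.25 without the first batch array and -0.08 with quantile normalization.

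Between the strains the 34 ATG genes differed by a median of 0.07 in chemostat and 0.84 in batch. In the fit over all 12 arrays 3 genes were called in chemostat and 23 in batch, and with only the 6 arrays of a culture fitted 11 were called in chemostat and 10 in batch. The array probes follow the S288C sequence, from which YSBN2 descends, so lower transcript and a poorer match of CEN.PK 113-7D transcripts to a probe cannot be told apart for a single strain difference. The same probe sets were read in both cultures, and their match to CEN.PK 113-7D transcripts was not tested. In chemostat YSBN2 was called higher in 1 of 34 genes (2.94%), against 12.9% of all probe sets, and lower in 2 (5.88%), against 15.3%. In batch YSBN2 was called higher in 20 genes (58.8%), against 18.5% of all probe sets, and lower in 3 (8.82%), against 10.5%. With only the 6 arrays of a culture fitted, YSBN2 was called higher in 6 genes (17.6%) in chemostat, against 15.9% of all probe sets, and lower in 5 (14.7%), against 18%. In batch that fit called YSBN2 higher in 9 genes (26.5%), against 10.9% of all probe sets, and lower in 1 (2.94%), against 5.79%. The differences themselves are the same in both fits. The median absolute strain difference was 0.44 in chemostat and 0.93 in batch for the ATG genes, while it was 0.32 in both over all probe sets.

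**Figure D3:**
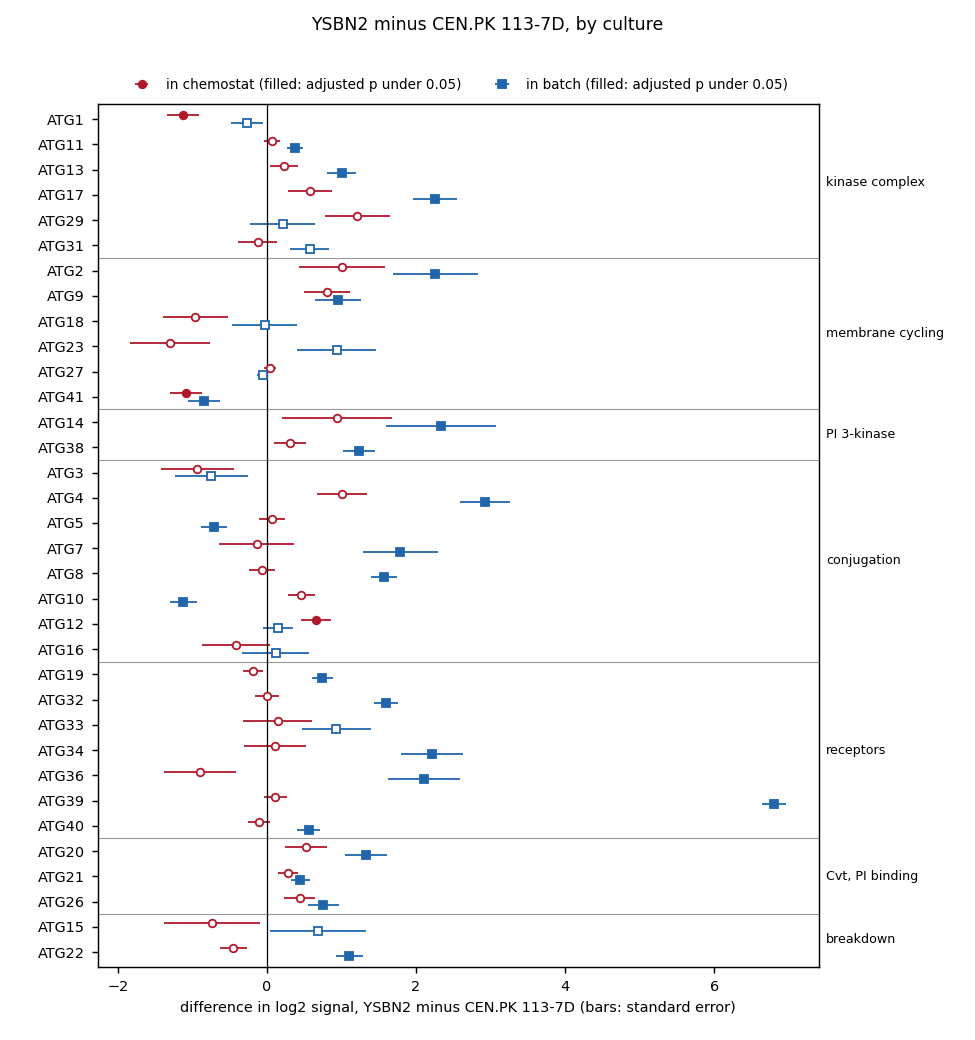
YSBN2 minus CEN.PK 113-7D difference (log2) of each ATG gene in chemostat and in batch, with bars of 1 SE from limma. Filled symbols have an adjusted p under 0.05 in the fit over all 12 arrays: 3 genes in chemostat and 23 in batch.

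The batch counts depend on the arrays fitted. Without the third YSBN2 batch array 21 genes were called higher and 4 lower in batch, and without the first or the second YSBN2 batch array 13 were called higher. With other array scalings the batch count of higher genes was 13 to 17, and with only the batch arrays fitted it was 9 (ATG4, ATG8, ATG13, ATG17, ATG19, ATG22, ATG32, ATG38 and ATG39). Shares of all probe sets are not given here for the counts without an array or with other scalings. Those counts therefore do not show whether ATG genes differ from other genes. Under every alternative in which they were tested, 8 of the 23 batch calls stood: ATG8, ATG13, ATG19, ATG22, ATG32, ATG38 and ATG39, higher in YSBN2, and ATG10, lower in YSBN2.

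The largest batch difference was that of ATG39, 6.81 ± 0.16 (SE, limma adjusted p = 2.9e-09), with YSBN2 arrays at 9.18, 9.30 and 9.73 against 2.81, 2.45 and 2.54 in CEN.PK 113-7D. With values under 6 raised to 6 it was 3.40 (adjusted p = 5e-07). In chemostat ATG39 differed by 0.11 ± 0.16 (SE, limma adjusted p = 0.65), with a 95% interval of -0.25 to 0.47. ATG4 and ATG14 followed in batch, with 2.93 ± 0.33 (SE, limma adjusted p = 0.00019) and 2.33 ± 0.74 (SE, limma adjusted p = 0.04). Both genes had CEN.PK 113-7D batch signals near 3. With values under 6 raised to 6 the ATG4 difference was 0.08 (adjusted p = 0.97) and the ATG14 difference 0.36 (adjusted p = 0.45). That floor also lies above the YSBN2 batch means of ATG4 (5.92) and ATG14 (5.50). It removes signal from both strains, so it cannot show which signals the differences rest on. ATG14 also lost its call without any 1 of 5 batch arrays (adjusted p from 0.091 to 0.13).

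ATG8 was higher in YSBN2 batch by 1.57 ± 0.17 (SE, limma adjusted p = 0.00015), or 2.96-fold, and in chemostat its strain difference was -0.07 ± 0.17 (SE, limma adjusted p = 0.83), with a 95% interval of -0.46 to 0.32. ATG32 had differences of 1.59 ± 0.16 (SE, limma adjusted p = 8.5e-05) in batch and -0.01 ± 0.16 (SE, limma adjusted p = 0.98) in chemostat, where the 95% interval was -0.37 to 0.36. ATG34, ATG36 and ATG17 were higher in YSBN2 batch by 2.22 ± 0.42, 2.10 ± 0.48 and 2.26 ± 0.29, and their chemostat differences, 0.11 ± 0.42, -0.90 ± 0.48 and 0.58 ± 0.29, were not called. With quantile normalization the batch differences of ATG36 and ATG17 were 1.08 (adjusted p = 0.15) and 1.20 (adjusted p = 0.059).

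ATG13 was higher in YSBN2 batch by 1.00 ± 0.19 (SE, limma adjusted p = 0.0039), ATG38 by 1.24 ± 0.21 (SE, limma adjusted p = 0.0023), ATG22 by 1.10 ± 0.18 (SE, limma adjusted p = 0.0016) and ATG19 by 0.74 ± 0.14 (SE, limma adjusted p = 0.0035). ATG9, ATG7, ATG2, ATG11, ATG21, ATG26 and ATG40 were also called higher, by 0.95, 1.79, 2.26, 0.37, 0.45, 0.76 and 0.56, but each lost its call when at least 1 batch array was left out (adjusted p from 0.052 to 0.15). Without the first CEN.PK 113-7D batch array the differences of ATG2 and ATG7 were 1.42 and 1.04 (adjusted p = 0.0013 each). ATG20 completed the 20, at 1.33 ± 0.28 (SE, limma adjusted p = 0.0068).

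In the other direction stood ATG10, ATG41 and ATG5. ATG10 and ATG5 were lower in YSBN2 batch, with differences of -1.12 ± 0.18 (SE, limma adjusted p = 0.0016) and -0.71 ± 0.18 (SE, limma adjusted p = 0.016), the ATG5 call being lost without the first CEN.PK 113-7D or the second YSBN2 batch array (adjusted p = 0.056 each). Without the third YSBN2 batch array ATG3 was also called lower in YSBN2 batch (-1.38, adjusted p = 0.0067). In chemostat ATG12 was called higher in YSBN2, by 0.65 ± 0.20 (SE, limma adjusted p = 0.039), and ATG1 and ATG41 lower. The ATG12 call was lost without any 1 of the 6 chemostat arrays, with adjusted p from 0.069 to 0.13. With only the chemostat arrays fitted, ATG2, ATG9, ATG17, ATG20 and ATG26 were also called higher in YSBN2, and ATG3, ATG23 and ATG36 lower.

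**Figure D4:**
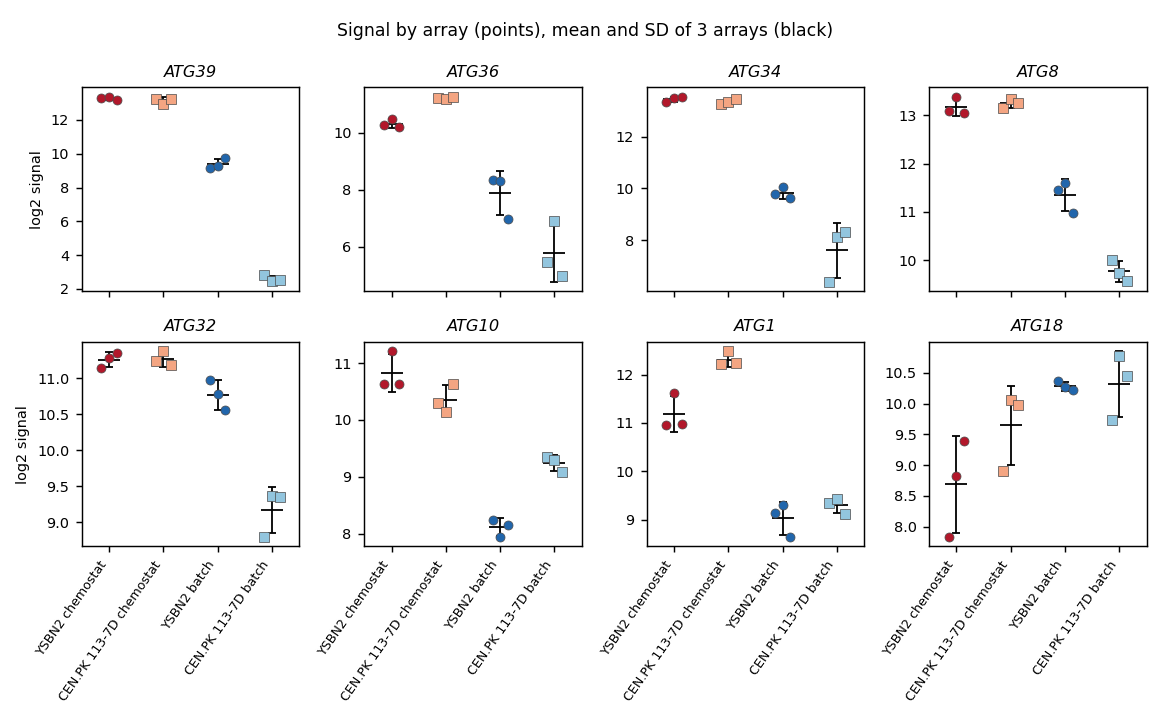
Signals (log2) of 8 ATG genes on each of the 12 arrays, by group, each panel with its own y axis. In 6 panels (ATG39, ATG36, ATG34, ATG8, ATG32 and ATG10) the chemostat effect differs between the strains at an adjusted p under 0.05, and ATG1 and ATG18 are shown beside them.

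The chemostat effect itself differed between the strains for 10 of the 34 genes. This test takes the chemostat-minus-batch difference in YSBN2 minus that in CEN.PK 113-7D, so a negative value means a smaller rise in YSBN2. It was called below 0 for 9 genes (26.5%), against 11.1% of all probe sets, and above 0 for 1 gene (2.94%), against 4.34%. The median of the 34 genes was -0.84, beside -0.05 over all probe sets, and 29 of 34 values were below 0. At an unadjusted p under 0.05 the counts were 15 below and 2 above 0. Without the third YSBN2 batch array 17 genes were called below 0, the 9 and in addition ATG1, ATG13, ATG14, ATG23, ATG26, ATG31, ATG38 and ATG40. Without the third CEN.PK 113-7D chemostat array or the first YSBN2 chemostat array 6 were called below 0. For the unadjusted counts and for those without an array, shares of all probe sets are not given here. Those counts therefore do not show whether ATG genes differ from other genes.

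The largest difference of effects was again that of ATG39, -6.69 ± 0.23 (SE, limma adjusted p = 1.2e-07), and it was -3.29 (adjusted p = 1.6e-05) with values under 6 raised to 6. ATG36 followed with -3.00 ± 0.69 (SE, limma adjusted p = 0.017), ATG8 had -1.64 ± 0.25 (SE, limma adjusted p = 0.0023), ATG32 -1.60 ± 0.23 (SE, limma adjusted p = 0.0018), ATG22 -1.55 ± 0.25 (SE, limma adjusted p = 0.0035) and ATG19 -0.93 ± 0.20 (SE, limma adjusted p = 0.012). Of the 7 ATG genes of the receptor group, which includes ATG33, 5 were thus called, with smaller rises in YSBN2. The fifth was ATG34, at -2.11 ± 0.59 (SE, limma adjusted p = 0.04). The ATG34 call was lost without any 1 of 8 arrays (adjusted p from 0.066 to 0.089) and the ATG17 call, -1.67 ± 0.42 (SE, limma adjusted p = 0.025), without any 1 of 6 (adjusted p from 0.055 to 0.063). With quantile normalization ATG17 was at -0.32 (adjusted p = 0.77) and ATG36 at -1.99 (adjusted p = 0.088).

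ATG4, at -1.92 ± 0.47 (SE, limma adjusted p = 0.023), turned to 0.93 (adjusted p = 0.23) with values under 6 raised to 6. That floor lies above the ATG4 batch means of both strains, 5.92 in YSBN2 and 2.99 in CEN.PK 113-7D. It sets most batch signals of ATG4 to 6, so the change of sign could not test the effect. ATG10 was the one gene called with a larger rise in YSBN2, by 1.59 ± 0.26 (SE, limma adjusted p = 0.0036), and the values of ATG5, ATG12, ATG27 and ATG29 were also above 0, at 0.78, 0.50, 0.10 and 1.00, none of them called. The calls of ATG39, ATG8, ATG32, ATG22, ATG19 and ATG10 stood under every alternative in which they were tested. Of the 7 genes called between cultures in CEN.PK 113-7D but not in YSBN2 (ATG2, ATG13, ATG15, ATG23, ATG31, ATG33 and ATG41), 0 were called by limma in the difference of effects, and 2, ATG13 and ATG23, had an unadjusted p under 0.05 there.

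One arrangement of the 4 groups was frequent. In 15 of 34 ATG genes (44.1%) all YSBN2 batch arrays lay above all CEN.PK 113-7D batch arrays and below all 6 chemostat arrays, which held for 7.52% of all probe sets. These 15 were ATG4, ATG7, ATG8, ATG11, ATG17, ATG19, ATG20, ATG21, ATG22, ATG32, ATG34, ATG36, ATG38, ATG39 and ATG40, and all 6 receptors with a called rise in both strains are among them. Values in this arrangement use the same batch arrays as the strain and culture comparisons above.

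The genes also differed in how closely replicates repeated. The pooled within-group SD (root mean square over the 4 groups) ran from 0.08 for ATG27 to 0.97 for ATG14. It was 0.22 for ATG8, 0.20 for ATG39 and ATG32 and 0.13 for ATG11. It was above 0.6 for ATG2, ATG3, ATG7, ATG14, ATG15, ATG23, ATG33 and ATG36. A single wide group can set most of such a value: the SD of ATG14 was 1.83 in YSBN2 batch and 0.04 in CEN.PK 113-7D batch.

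The partner genes of each group were read beside the ATG genes. In the phosphatidylinositol 3-kinase complex, VPS34, the lipid kinase, rose by 0.52 ± 0.13 (SE, limma adjusted p = 0.0071) in YSBN2 and by 0.69 ± 0.13 (SE, limma adjusted p = 0.0013) in CEN.PK 113-7D, and VPS15, its regulatory kinase, by 0.96 ± 0.27 and 0.83 ± 0.27 in the same strains. The YSBN2 rise of VPS15 was 0.60 (adjusted p = 0.0099) without the third YSBN2 batch array, and the CEN.PK 113-7D value was also 0.60 (adjusted p = 0.083) with quantile normalization. VPS30, the gene also known as ATG6, rose by 1.86 ± 0.32 (SE, limma adjusted p = 0.00094) in YSBN2, and in CEN.PK 113-7D its difference was 0.80 ± 0.32 (SE, limma adjusted p = 0.059). SNX4, a sorting nexin that pairs with Atg20 and is also known as ATG24, rose by 1.58 ± 0.21 (SE, limma adjusted p = 0.00018) in YSBN2 and by 1.72 ± 0.21 (SE, limma adjusted p = 8.8e-05) in CEN.PK 113-7D. With these 2 genes counted as members, 26 of 36 were called higher in the chemostat in YSBN2 and 32 of 36 in CEN.PK 113-7D, and 4 were called lower in YSBN2 batch than in CEN.PK 113-7D batch. The shares of all probe sets were 30.6%, 33.9% and 10.5%, in the same order.

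The 6 genes of Cvt cargo and vacuolar hydrolases were all called higher in YSBN2 batch than in CEN.PK 113-7D batch. That held for 18.5% of all probe sets. In chemostat against batch 3 rose and 2 fell in YSBN2 (50% and 33.3%), against 30.6% and 21.9% of all probe sets. In CEN.PK 113-7D 5 rose and 0 fell (83.3% and 0%), against 33.9% and 22.2% of all probe sets. AMS1, the vacuolar mannosidase carried by Atg19 and Atg34, had signals of 13.19, 13.43 and 13.33 in YSBN2 chemostats, against 10.56, 10.52 and 10.51 in YSBN2 batch. In CEN.PK 113-7D it was at 13.49, 13.58 and 13.19 in CEN.PK 113-7D chemostats, against 4.76, 5.41 and 6.57 in CEN.PK 113-7D batch. Its groups stood as those of ATG34 and ATG39 did, with the chemostats together at the top, YSBN2 batch between and CEN.PK 113-7D batch lowest. AMS1 rose by 2.79 ± 0.36 (SE, limma adjusted p = 0.00016) in YSBN2 and by 7.84 ± 0.36 (SE, limma adjusted p = 1e-07) in CEN.PK 113-7D.

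APE1, the aminopeptidase that is the main Cvt cargo, moved in opposite directions. Its signals were 11.26, 11.57 and 11.38 in YSBN2 chemostats, against 13.97, 13.82 and 13.69 in YSBN2 batch. In the other strain APE1 was at 12.88, 12.88 and 12.74 in CEN.PK 113-7D chemostats, against 11.62, 11.93 and 11.97 in CEN.PK 113-7D batch. The highest arrays were those of YSBN2 batch and the lowest those of YSBN2 chemostats. APE1 fell in the YSBN2 chemostat, with a difference of -2.42 ± 0.12 (SE, limma adjusted p = 2.6e-07), and rose by 1.00 ± 0.12 (SE, limma adjusted p = 8.9e-05) in CEN.PK 113-7D, while its receptor gene ATG19 rose in both.

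Of the proteases PRB1 differed by 0.21 ± 0.17 (SE, limma adjusted p = 0.33) in YSBN2 and rose by 2.13 ± 0.17 (SE, limma adjusted p = 5.6e-06) in CEN.PK 113-7D. PEP4, which activates the other hydrolases, rose by 0.55 ± 0.05 in YSBN2 and by 1.11 ± 0.05 in CEN.PK 113-7D. In batch all 6 genes were called higher in YSBN2, against 18.5% of all probe sets. For all 6 the difference of effects was called below 0, against 11.1% of all probe sets. Both counts were also 6 with a common array median, quantile normalization and cyclic loess.

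**Figure D5:**
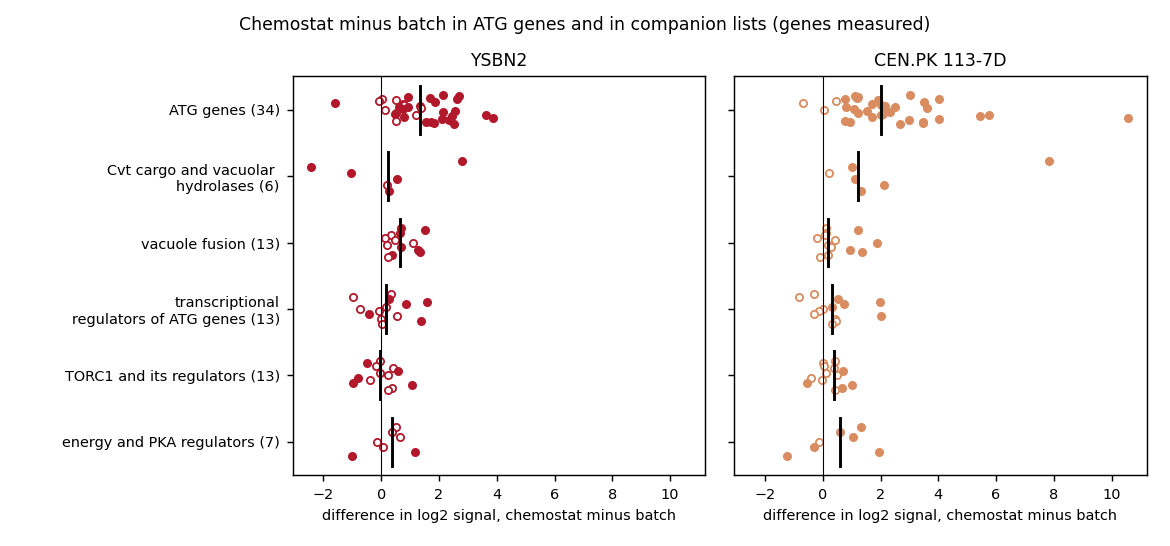
Chemostat minus batch difference (log2) of the 34 ATG genes, together in 1 row, with YSBN2 and CEN.PK 113-7D side by side. The other rows hold the lists of Cvt cargo and hydrolases, vacuole fusion, and transcription, TORC1 and energy regulators. Symbols are filled where the adjusted p is under 0.05, and a black bar marks the median. The ATG genes have medians of 1.35 and 2.02, while the lists of TORC1, energy and transcription regulators have medians between -0.04 and 0.59. In YSBN2 and CEN.PK 113-7D the medians are 0.23 and 1.21 for Cvt cargo and hydrolases and 0.65 and 0.20 for vacuole fusion.

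Genes that act before the Atg1 complex had calls in both directions. Over all probe sets 30.6% rose and 21.9% fell in YSBN2, and 33.9% rose and 22.2% fell in CEN.PK 113-7D. Of 13 genes of TORC1 and its regulators 2 rose and 3 fell in the YSBN2 chemostat, and 3 rose and 1 fell in CEN.PK 113-7D, which is 15.4% and 23.1% in YSBN2 and 23.1% and 7.69% in CEN.PK 113-7D, with medians of -0.04 and 0.39 (-0.18 and 0.11 with a common array median). TAP42, a phosphatase regulator under TORC1, rose by 1.05 ± 0.23 (SE, limma adjusted p = 0.004) in YSBN2 and by 1.01 ± 0.23 (SE, limma adjusted p = 0.0046) in CEN.PK 113-7D, and its phosphatase SIT4 fell, with differences of -0.97 ± 0.17 and -0.53 ± 0.17, the CEN.PK 113-7D call of SIT4 being lost without any 1 of 4 arrays (adjusted p from 0.051 to 0.071). Of 7 genes of the Snf1 and protein kinase A pathways 1 rose and 1 fell in YSBN2, and 4 rose and 2 fell in CEN.PK 113-7D. The catalytic subunit gene TPK2 of protein kinase A rose by 1.18 ± 0.13 (SE, limma adjusted p = 5.4e-05) in YSBN2 and by 1.96 ± 0.13 (SE, limma adjusted p = 1.4e-06) in CEN.PK 113-7D. TPK3, another catalytic subunit gene, fell in YSBN2 (limma adjusted p = 0.0042) and in CEN.PK 113-7D, where its difference was -1.23 ± 0.22 (SE, limma adjusted p = 0.0012).

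Among 13 transcription regulators linked to ATG genes 4 rose and 1 fell in YSBN2, and 5 rose and 0 fell in CEN.PK 113-7D, where the split was 3 and 2 with a common array median and 2 and 4 with quantile normalization. As deposited, 30.8% of these genes rose in YSBN2 and 38.5% in CEN.PK 113-7D, near the 30.6% and 33.9% of all probe sets. GIS1, a zinc finger regulator of post-diauxic genes, rose by 1.58 ± 0.16 (SE, limma adjusted p = 2.6e-05) in YSBN2 and by 1.98 ± 0.16 (SE, limma adjusted p = 4.7e-06) in CEN.PK 113-7D. UME6, which represses ATG8 in growing cells, differed by 0.04 ± 0.18 (SE, limma adjusted p = 0.88) in YSBN2 and by 0.32 ± 0.18 (SE, limma adjusted p = 0.17) in CEN.PK 113-7D, neither called. The 13 genes that fuse autophagosomes with the vacuole had 7 rises and 0 falls in YSBN2 and 4 rises and 0 falls in CEN.PK 113-7D, where quantile normalization gave 1 rise and 2 falls. The rises were 53.8% of these genes in YSBN2, against 30.6% of all probe sets, and 30.8% in CEN.PK 113-7D, a share near the 33.9% of all probe sets. VTI1, a SNARE protein of that fusion, rose by 1.35 ± 0.12 (SE, limma adjusted p = 1.3e-05) in YSBN2 and by 1.35 ± 0.12 (SE, limma adjusted p = 1e-05) in CEN.PK 113-7D.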

How the data were processed

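RNA from 12 cultures was measured on Affymetrix yeast arrays, 3 biological replicates in each of 4 groups. R 2.6, affy and RMA are named per the submitters' processing notes. For background correction and normalization, settings were not given in the sources used here. No source states the log base of the deposited values. They run from 1.69 to 16.2 and were read as log2 signals of the authors. No depth applies to arrays, and 3 arrays per group limit the precision. Genes were named from the platform annotation and checked against RefSeq R64. No deposited column was left unused (0).

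limma 3.58.1 in R 4.3.3 was fitted to all 5716 probe sets with 1 mean per group over 12 arrays and eBayes (8 residual and 1.34 prior degrees of freedom). Two-sided p-values of each contrast, corrected over the 5716 probe sets (Benjamini-Hochberg), were called under 0.05. The 5 contrasts share arrays: each group enters 2 of the 4 pairwise ones. No probe set was filtered out. Errors are limma's standard errors. The script was tested on simulated data.

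The members and lists were chosen with earlier results of these data known. Any ATG gene may be named. Signals of every array are given for ATG1, ATG8 and ATG9, for the 3 largest rises and falls called in each contrast, for genes called in opposite directions and for genes called in the difference of effects. Of partner lists, up to 3 called genes per direction may be named. HO, ADH2, RGI2, ATG42, CUE5 and UME6 are named besides, and AMS1 and APE1 are given in full because Atg19 and Atg34 carry them. Same-numbered replicates were compared by the correlation of their deviations from group means. It was 0.50, 0.28 and 0.31 between CEN.PK 113-7D batch and chemostat, so these 6 arrays were also fitted as pairs, from the data alone. Other pairs of groups compared reached a lowest r of -0.17, 0.003 and -0.10 and were not paired. Alternatives were other array scalings, a floor of 6, leaving out the 25% dimmest probe sets, eBayes with trend and robust settings, a replicate block, only the arrays compared, members by synonym, and each array left out in turn. Promoter and protein sequences were not analysed here.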

Additional observations from a re-analysis of the deposited data

Results flagged for a closer look

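For 10 ATG genes the chemostat effect differed between the strains in a test of the difference itself (limma, adjusted over all probe sets). Each value is the chemostat-minus-batch difference in YSBN2 minus that in CEN.PK 113-7D, on the log2 scale. Among the receptors ATG39 was at -6.69 (adjusted p = 1.2e-07), ATG36 at -3.00 (adjusted p = 0.017), ATG34 at -2.11 (adjusted p = 0.04), ATG32 at -1.60 (adjusted p = 0.0018) and ATG19 at -0.93 (adjusted p = 0.012). ATG4 was at -1.92 (adjusted p = 0.023), ATG17 at -1.67 (adjusted p = 0.025), ATG8 at -1.64 (adjusted p = 0.0023) and ATG22 at -1.55 (adjusted p = 0.0035). ATG10, at 1.59 (adjusted p = 0.0036), was the one of the 10 with the larger rise in YSBN2. All 10 genes were called higher in chemostat in both strains, so the test concerns the size of a rise and not its direction. ATG34, ATG17 and ATG4 each lost the call when any of several single arrays was left out. ATG36 lost it with quantile normalization. With values under 6 raised to 6, ATG4 changed sign and the ATG39 value was smaller in size. For ATG4 that floor lies above the batch means of both strains, so the change of sign could not test the effect. The calls that stood under every alternative tested were 6 of the 10: ATG39, ATG8, ATG32, ATG22, ATG19 and ATG10.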

How the results depend on the processing

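With a common array median, 1 gene was called lower in the CEN.PK 113-7D chemostat, the median differences were 1.21 in YSBN2 and 1.73 in CEN.PK 113-7D, 4 genes were higher in YSBN2 in chemostat, and the difference of effects had 2 calls above 0 and a median of -0.69. Quantile normalization gave medians of 0.88 in YSBN2 and 1.17 in CEN.PK 113-7D, 1 gene lower in the CEN.PK 113-7D chemostat, 13 genes higher in YSBN2 batch with a median of 0.45, 5 higher and 4 lower in YSBN2 chemostat, and 3 calls above 0 with a median of -0.36 for the difference of effects. Cyclic loess gave medians of 0.95 in YSBN2 and 1.65 in CEN.PK 113-7D, 1 gene lower in CEN.PK 113-7D, 3 higher in YSBN2 in chemostat and 2 differences of effects above 0. These scalings moved the median of all probe sets by -0.28, -0.24 and -0.11 in CEN.PK 113-7D and by -0.13, -0.11 and -0.06 in YSBN2, in the order above. The share of calls over all probe sets that were higher, as deposited, with a common median and with quantile normalization, was 58.3%, 48.5% and 44.7% in YSBN2, 60.4%, 40.4% and 37.8% in CEN.PK 113-7D, 63.8%, 50% and 47.6% between strains in batch, and 28.1%, 45.9% and 50.7% for the difference of effects.

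Raising values under 6 to 6 gave medians of 1.70 in CEN.PK 113-7D and 0.66 in batch and 3 genes higher in YSBN2 in chemostat. Leaving out the 25% dimmest probe sets kept 21 of the 34 genes, so counts fell by construction: 19 higher in CEN.PK 113-7D (median 1.69), a median of 0.91 in YSBN2, 13 higher in batch, 0 higher in chemostat and 5 differences of effects below 0. Trend and robust settings left 0 genes higher in YSBN2 in chemostat. With only the arrays compared, 9 genes were higher and 1 lower in batch, and 6 higher and 5 lower in chemostat. Without both odd batch arrays, an alternative chosen after seeing the data, the CEN.PK 113-7D median was 1.72, 6 genes were higher and 4 lower in YSBN2 in chemostat and 15 differences of effects were below 0. The replicate block gave 4 genes lower in YSBN2 in chemostat. In the fit of the 6 paired CEN.PK 113-7D arrays, also chosen after seeing the data, the block added 1 gene called lower, ATG18, and changed no other call. Direction turned for ATG27 (-0.24, common median), ATG29 (-0.75) and ATG15 (-0.08, both with quantile normalization) in CEN.PK 113-7D, and for ATG4 in the difference of effects (0.93, values raised to 6). For ATG4 the floor lies above the batch means of both strains, so that turn could not test the effect. Among partner genes in CEN.PK 113-7D, quantile normalization turned VPS38 (-1.03), TRS85 (-0.51), SPT10 (-1.25), VAM7 (-0.31), CCZ1 (-0.39), VPS41 (-0.53) and VPS16 (-0.62). The cause was not tested.

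Leaving out 1 array at a time gave 21 to 24 genes higher and 1 lower in YSBN2 (median 1.31 to 1.43), and 29 to 31 higher and 0 lower in CEN.PK 113-7D (median 1.72 to 2.27). In batch 13 to 21 genes were higher and 2 to 4 lower in YSBN2 (median 0.68 to 0.98), and in chemostat 0 to 2 higher and 2 to 3 lower (median 0.01 to 0.11). The difference of effects had 1 to 2 calls above 0 and 6 to 17 below (median -1.02 to -0.71). Beside the gene counts of this section, shares of all probe sets are given only for the fits of the arrays compared, in the strain comparison above. Calls that stood under every alternative in which the gene was tested numbered 19 of 25 in YSBN2, 25 of 31 in CEN.PK 113-7D, 8 of 23 in batch, 2 of 3 in chemostat and 6 of 10 for the difference of effects. Signals under about 4 limit ATG16, ATG15 and the CEN.PK 113-7D batch levels of ATG4, ATG14 and ATG39.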
